A study of Mus musculus with 12 samples.

Results

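The cytochrome P450 genes outside steroid and retinoid synthesis are the mouse Cyp genes that oxidise foreign compounds, fatty acids, sterols and vitamin D. They were taken as every gene whose symbol has the P450 form of family number, subfamily letter and gene number, less Cyp11a1, Cyp11b1, Cyp11b2, Cyp17a1, Cyp19a1, Cyp21a1, Cyp26a1, Cyp26b1 and Cyp26c1. This gave 81 entries with 80 different symbols among 31618 genes of the uterus and oviduct libraries, and the same 81 among 31669 genes of the vas deferens and epididymis libraries. Cyp4a29 has 2 entries.

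RNA sequencing was done on reproductive tracts of mice on a CD1/129 background, aged 3 to 7 months, with females collected in diestrus. Each library held RNA pooled from 3 animals, and each group was 1 library. The groups were uterus and vas deferens of Hoxa9,10,11-/- mice (Hoxa-null), of Hoxa9,10,11-/-d9,10,11+/- mice (compound Hoxa-null), of Hoxd9,10,11-/- mice (Hoxd-null), of Hoxa9,10,11+/-d9,10,11-/- mice (compound Hoxd-null) and of WT mice, with WT oviduct and WT caudal epididymis besides. The labels give no kind of allele.

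Cytochrome P450 enzymes are haem proteins that insert 1 oxygen atom into a substrate, using electrons passed on by Por in the endoplasmic reticulum or by Fdxr and Fdx1 in mitochondria. Families 1 to 3 are best known for clearing drugs, pollutants and plant compounds in the liver, and much of their control runs through the receptors Ahr, Nr1i2 and Nr1i3. Families 2 (subfamilies 2j and 2u) and 4 oxidise fatty acids and eicosanoids, and others open the routes to bile acids and active vitamin D.

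The deposited values are log2 levels centred on each gene's median, so values are given here as log2 differences, mutant uterus minus WT uterus, mutant vas minus WT vas, oviduct minus WT uterus and epididymis minus WT vas. In these 1 unit is 2-fold. With 1 library per group there is no replicate error and no test was possible. A gene was called at least 2-fold higher or lower as a description of the libraries, and pooled animals and library preparation cannot be told apart from genotype. Where a gene's values lay on the steps of whole low read counts, its level is also given in reads. A library with so few reads that it came to 1 normalised read or less is said to be at the floor.

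Among the 81 entries, 24 were constant in the uterus and oviduct set and 21 in the vas deferens and epididymis set, and nothing more can be said of these. A further 15 and 19 did not reach 20 normalised reads in any library. The remaining 42 and 41 were measured, among 16812 and 16898 measured genes in all. The 24 constant entries of the female set include 13 Cyp2c genes, and the others were Cyp1a2, Cyp2j5, Cyp2w1, Cyp3a44, Cyp3a59, both entries of Cyp4a29, Cyp4a31, Cyp4f17, Cyp4f40 and Cyp7a1, the rate-limiting enzyme of bile acid synthesis.

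Depth differed 1.34-fold between the female and 1.92-fold between the male libraries. Hoxa11 RNA was -2.74 and -3.11 from WT in both Hoxa-null uteri (compound second) and -2.29 and -3.20 in their vasa. Hoxd11 RNA was -0.59 and -1.58 in both Hoxd-null uteri and -2.47 and -1.17 in their vasa, but it was also -0.73 and -1.35 in both Hoxa-null uteri and -0.88 and -1.45 in their vasa, so it does not set the Hoxd-null pair apart. In the vasa Hoxd9 was -1.28 and -1.20 in the Hoxd-null pair, against -0.33 or more in the others, and Hoxa10 was -0.80 and -0.87 in the Hoxa-null pair, against -0.11 or more in the others, each in the direction of its label. Hoxa9, Hoxd10 and, in the uterus, Hoxd9 did not set their pair apart in that direction, and Hoxa10 in the uterus did so only by a small margin, at -1.06 and -0.41 against -0.36 or more. The compound Hoxd-null vas and both WT libraries of oviduct and epididymis were sequenced in another run than the remaining libraries, and the WT uterus and WT vas in another lane than all their mutants but the Hoxa-null uterus, so run and lane cannot be told apart from tissue or genotype there. Some libraries held genes of another tissue. The WT vas deferens was the one vas library with more than 3 reads of Prss28, a protease of uterine glands, at 43.2 reads or 0.651% of the level in the WT uterus, which ran in the same lane. The compound Hoxd-null uterus held Hsd3b1, an enzyme of steroid-making cells, at 5.51% of its level in the oviduct, and the Hoxa-null uterus at 0.414%.

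The share of measured P450 genes that were at least 2-fold apart from WT was above the share of all measured genes in most comparisons, and by far the widest gap was in the oviduct.

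**Figure D1:**
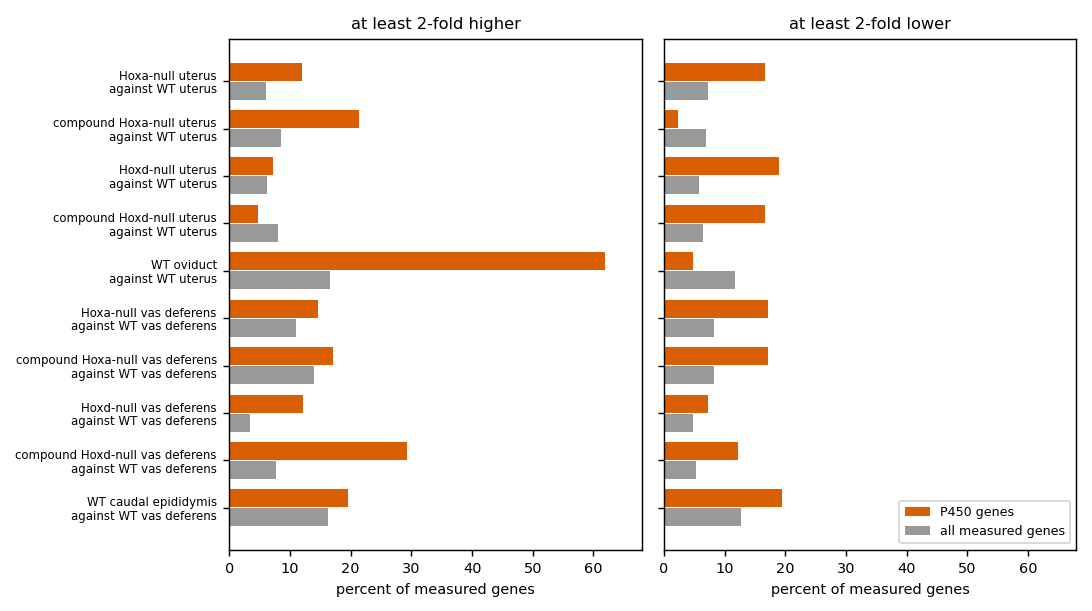
Percent of measured genes at least 2-fold higher (left) and lower (right) in each library against the WT library of the tissue, for P450 genes (orange, 42 female and 41 male) and all measured genes (grey). In the WT oviduct 61.9% of P450 genes were at least 2-fold higher, against 16.5% of all genes.

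Most measured P450 genes had more RNA in the oviduct than in the uterus. Against the WT uterus, 26 of 42 measured members were at least 2-fold higher in the WT oviduct and 2 were lower, where 16.5% of all measured genes were higher and 11.7% lower. The median difference was 1.36 for the members and 0.00 for all genes. Cyp2a4, Cyp2b10, Cyp2b13, Cyp2b19 and Cyp2d12 reached the minimum level in the oviduct alone, so they had to be higher there. Counting only genes that reached it in a uterus library, 21 of 37 members were higher and 2 lower, against 13.9% and 12.1% of all genes. Relative to all 5 uterus libraries at once, the oviduct was at least 2-fold above for 17 members and below for none, against 9.84% and 4.36% of all genes. Without the same 5 genes it was 12 of 37 above and none below, against 7.26% and 4.49% of all genes that reached the minimum in a uterus library. Cyp2a5 stayed among the 37 because its level was not readable by the main rule. With its lowest uterus read as the floor, it had at most 18.6 reads in a uterus and was under the minimum there too.

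Families 2 and 3 supplied most of the difference, with 19 of 21 measured members higher in the oviduct, and 14 of 16 without the 5 that reached the minimum level there alone. The 14 still include Cyp2a5. Cyp2b10, a gene strongly induced by phenobarbital in liver, had 827 reads in the WT oviduct and 1 read in the WT uterus, and was at the floor in all 4 mutant uteri. The ratio of normalised reads was 673, with an exact 95% interval of 120 to 26600 that covers counting error only. Cyp2d12 had 70.8 reads and Cyp2b13 41.9 reads in the oviduct and were at the floor in all 5 uteri, so they were at least 19.2-fold and 11.4-fold higher, computed against 3 reads in the WT uterus. The read steps include fractions of a read, for which the counting method is not given in the sources used here.

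Cyp2a5, the coumarin hydroxylase of mouse liver, was 5.51 log2 units higher in the oviduct. With the compound Hoxd-null uterus read as the floor, Cyp2a5 had 606 reads in the oviduct and 10.8 in the WT uterus. Its neighbour Cyp2a4, a testosterone hydroxylase, had 153 reads in the oviduct. It had 9.0 and 1.5 reads in the compound Hoxa-null and Hoxd-null uteri, was at the floor in the other 2 mutants and had 3.78 reads in the WT uterus. Cyp2s1, an epithelial P450 found mostly outside the liver, was 3.28 higher. Cyp2f2, which activates naphthalene in airway club cells, was 2.51 higher. Cyp2c44, an arachidonic acid epoxygenase, and Cyp2e1, the ethanol-oxidising P450, were 1.97 and 1.58 higher, with 4 of 7 adipocyte markers at least 2-fold higher in the oviduct. Cyp2b19, an arachidonic acid epoxygenase known from skin, had 31.1 reads in the oviduct and 1.48 in the WT uterus, a ratio of 17.1 with an interval of 3.66 to 254. Apart from Cyp2c44 and Cyp2e1, these genes lie in the same block of the genome.

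That block lies on chromosome 7, with first and last gene starts at 26587490 and 27938733 in mm9. It holds 13 members, and the 8 that were measured were at least 2-fold higher in the oviduct, the least being 1.32 for Cyp2t4. Of these 8, Cyp2a4, Cyp2b10, Cyp2b13 and Cyp2b19 reached the minimum level in the oviduct alone and had to be higher. Of the other 4, Cyp2a5 had at most 18.6 reads in a uterus with its lowest library read as the floor, also under the minimum. That leaves Cyp2s1, Cyp2f2 and Cyp2t4, all higher, as free to differ. None of the 17 other genes listed between the same positions was measured, so the neighbours give no comparison. The 9 Cyp2d genes on chromosome 15 (starts 82201910 to 82620537, mm9) were all measured. Cyp2d12 had to be higher, and the other 8 were higher by 1.14 for Cyp2d34 to 2.62 for Cyp2d13. The 1 measured gene of another kind between them was 1.99 higher too. Genes of such blocks are close copies, reads could be split or shared between them, and the single-gene values are uncertain to that extent.

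**Figure D2:**
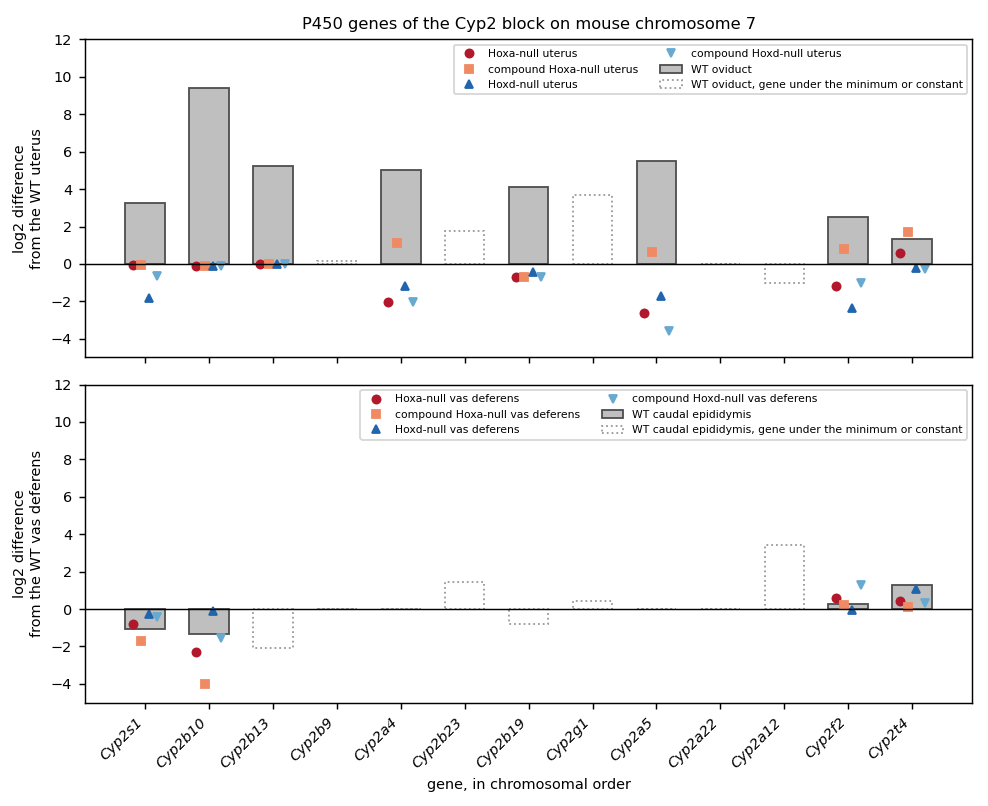
Log2 difference from the WT uterus (top) and the WT vas deferens (bottom) for the 13 P450 genes of the Cyp2 block on chromosome 7, in chromosomal order. Bars are the WT oviduct and WT caudal epididymis (dotted where the gene was constant or under the minimum level), and symbols are the 4 mutants. The 8 measured female genes have oviduct bars above 1. Of these, Cyp2a4, Cyp2b10, Cyp2b13 and Cyp2b19 met the minimum level in the oviduct alone, as did Cyp2a5 with its lowest uterus read as the floor.

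The stretches just before the start of 5 members that turn the results are shown so that the oviduct genes can be read beside Cyp1a1, the classical target of the dioxin receptor Ahr. They are the 250 bases before the annotated start, 5′ to 3′ on the gene's strand, from RefSeq on GRCm38.p6. The table has entries for 63 of the 80 symbols. Cyp2j13 has 2 listed starts, and only the stretch at the lower coordinate is shown and searched. Capitals mark GCGTG (the core bound by Ahr with Arnt), AGGTCA (a half-site of many nuclear receptors) and TATAAA, each searched on both strands, and none of the hits overlap. The positions are chr7:25897408-25897657 (+) for Cyp2b10, chr7:26835089-26835338 (+) for Cyp2a5, chr4:96077541-96077790 (-) for Cyp2j13, chr17:32685409-32685658 (+) for Cyp4f15 and chr9:57697363-57697612 (+) for Cyp1a1.
Cyp2b10: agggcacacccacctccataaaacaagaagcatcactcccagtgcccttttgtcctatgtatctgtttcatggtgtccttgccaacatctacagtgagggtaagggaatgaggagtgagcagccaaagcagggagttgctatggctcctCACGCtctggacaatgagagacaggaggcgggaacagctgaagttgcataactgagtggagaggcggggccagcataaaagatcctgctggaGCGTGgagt
Cyp2a5: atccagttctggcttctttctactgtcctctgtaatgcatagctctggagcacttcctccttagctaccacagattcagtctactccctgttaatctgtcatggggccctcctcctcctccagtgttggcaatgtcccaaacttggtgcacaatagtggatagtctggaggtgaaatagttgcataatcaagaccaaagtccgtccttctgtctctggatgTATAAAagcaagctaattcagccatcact
Cyp2j13: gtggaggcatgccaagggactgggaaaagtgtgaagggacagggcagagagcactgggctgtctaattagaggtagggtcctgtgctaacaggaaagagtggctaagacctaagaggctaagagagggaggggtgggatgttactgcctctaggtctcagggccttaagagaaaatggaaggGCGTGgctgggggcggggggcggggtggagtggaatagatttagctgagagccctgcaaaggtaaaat
Cyp4f15: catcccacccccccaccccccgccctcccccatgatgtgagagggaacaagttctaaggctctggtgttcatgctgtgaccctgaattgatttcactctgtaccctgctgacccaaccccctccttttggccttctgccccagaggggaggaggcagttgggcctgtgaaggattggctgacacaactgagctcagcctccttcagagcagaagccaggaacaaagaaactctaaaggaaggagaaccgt
Cyp1a1: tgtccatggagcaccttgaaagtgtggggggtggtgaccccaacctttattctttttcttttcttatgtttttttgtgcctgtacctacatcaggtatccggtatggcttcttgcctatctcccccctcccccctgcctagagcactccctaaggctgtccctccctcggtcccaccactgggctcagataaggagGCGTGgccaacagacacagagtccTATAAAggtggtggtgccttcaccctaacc

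Cyp1a1 holds 1 GCGTG and 1 TATAAA, which begin 54 and 30 bases before the start. Cyp2b10 holds GCGTG on 2 occasions, Cyp2j13 on 1, and Cyp2a5 has a TATAAA that begins 29 bases before the start. Cyp4f15 holds none of the 3 motifs. Of all 32851 promoter entries, 28.2% hold GCGTG, 14.0% AGGTCA and 12.4% TATAAA in the same window. A match is only a run of letters, and no factor's binding was measured.

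Among the fatty acid and eicosanoid enzymes, 5 of 12 measured members were at least 2-fold higher in the oviduct and none lower. Cyp2j13, one of the 2j epoxygenases of arachidonic acid, was 5.66 higher in the oviduct. Cyp4f15 and Cyp4f14, omega-hydroxylases of fatty acids and leukotrienes, were 4.90 and 4.86 higher. In the 4 mutant uteri Cyp2j13 was 0.37, 1.30, -0.74 and -0.999 from WT (Hoxa-null, its compound, Hoxd-null, its compound), and the oviduct lay 4.35 above the highest uterus. For Cyp4f15 the gap to the highest uterus was 4.24.

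The sterol and vitamin D enzymes did not share in this. Of 6 measured, Cyp39a1, an oxysterol 7-alpha-hydroxylase, was 1.01 higher in the oviduct and Cyp27a1, the mitochondrial sterol 27-hydroxylase, was lower at -1.82. The other gene lower in the oviduct was Cyp3a57, a family 3 gene with little known function, which was at the floor there and had 46.6 reads in the WT uterus, at least 19.1-fold lower.

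Other cells also differed between these libraries. All 6 listed markers of ovary and steroidogenic cells were 3.54 log2 units or more higher in the oviduct than in the WT uterus, and all 4 found of ciliated oviduct cells 4.89 or more, while the 4 general epithelial genes were between -0.42 and -0.07. Of 5 liver markers, Alb, Apoa2 and Fgb were constant or under the minimum level, Apoa1 was 3.79 higher in the oviduct and Ttr was at -7.16. Of these markers, Zp3 (ovary), Dnaic1 (ciliated cells) and Apoa1 had at most 1.0, 5.46 and 3.0 reads in a uterus. These markers reached the minimum level in the oviduct alone and had to be higher there. The part of ovarian or ciliated cells in the P450 differences was not tested. In the Hoxa-null, compound Hoxa-null and Hoxd-null uteri 3, 2 and 1 of the same 6 ovary and steroidogenic markers were at least 2-fold higher. Cyp11a1 was 3.27 and 1.78 higher in both Hoxa-null uteri (compound second), and Hsd3b1 had 21.5 and 2.0 reads there. Amh was 1.85 and 1.35 higher in the Hoxa-null and Hoxd-null uteri. In the compound Hoxd-null uterus 2 of the 6 were at least 2-fold higher than in WT. Hsd3b1 had 296 reads with the WT uterus at the floor, at least 82.2-fold higher, and Cyp11a1 was 6.34 higher. The others lay between 0.00 and 0.74. Cyp2b10, Cyp2b13, Cyp2d12 and Cyp2a5 were at the floor there. Hsd3b1 was at 5.51% of its oviduct level, and Cyp2b13 and Cyp2d12 had only 41.9 and 70.8 reads in the oviduct itself. In bulk tissue, fewer cells of a type and less RNA per cell cannot be told apart.

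Some receptors and partners of the P450 system were high in the oviduct. Of 22 measured partner genes, 9 were at least 2-fold higher and 3 lower, against 16.5% and 11.7% of all genes, with a median of 0.52. The 9 include Nr1i2 and Hnf4a, with at most 4.0 and 2.0 reads in a uterus. These reached the minimum level in the oviduct alone and had to be higher there. Nr1i2, the pregnane X receptor, was 6.81 higher, and Ephx2, which hydrolyses the epoxides that 2c and 2j enzymes make, was 3.83 higher. Hnf4a, a liver and gut regulator of P450 genes, had 122 reads in the oviduct and 1 read in the WT uterus, a ratio of 99.2 with an exact 95% interval of 17.5 to 3950. Por, the shared electron donor, differed by 0.13 and Ahr by 0.02.

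**Figure D3:**
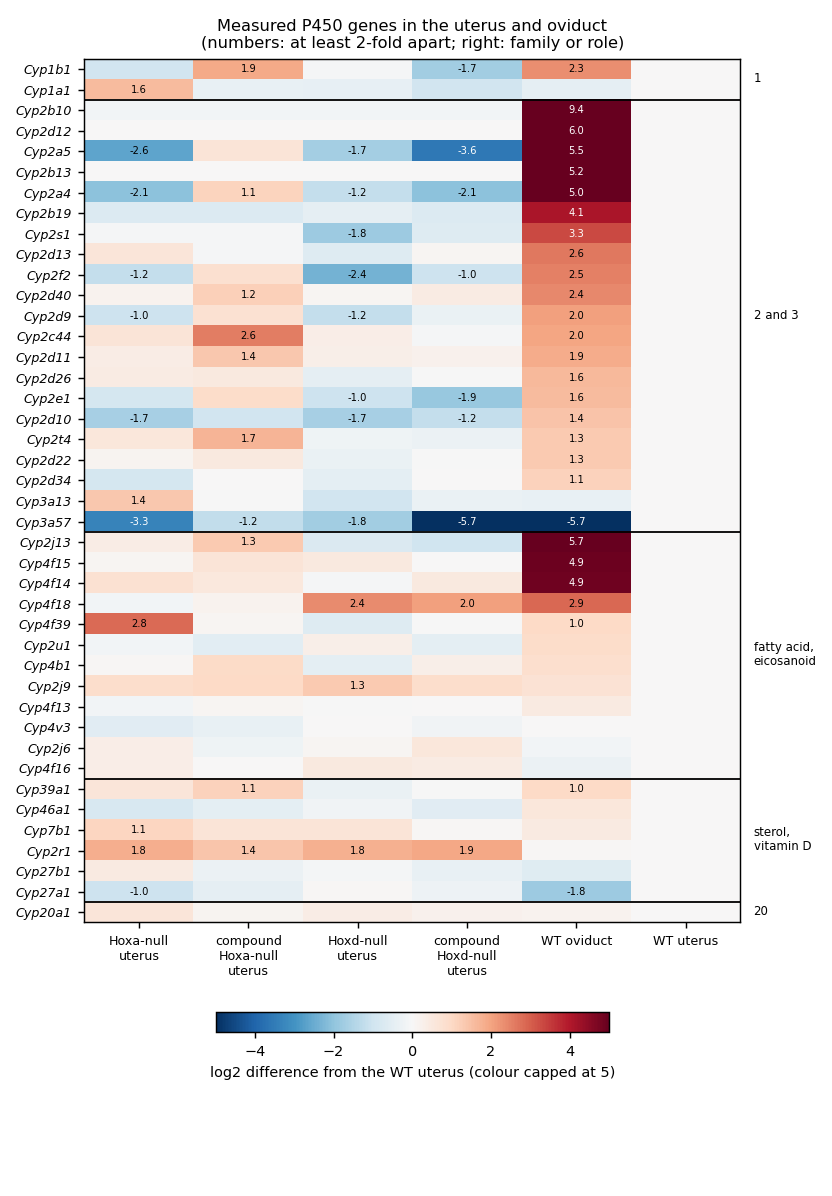
Log2 difference from the WT uterus for the 42 measured P450 genes (rows, grouped by family or role) in the 4 mutant uteri, the WT oviduct and the WT uterus itself, which is 0 by definition. Red is higher and blue lower, with numbers printed at 2-fold or more; the oviduct column is red for 26 genes, and Cyp3a57 is blue in the oviduct and in all 4 mutants.

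In the mutant uteri fewer P450 genes were 2-fold apart from WT, and mostly in single libraries. In the Hoxa-null uterus 5 of 42 members were at least 2-fold higher and 7 lower than in WT, where 6.03% and 7.3% of all measured genes were. The compound Hoxa-null uterus had 9 higher and 1 lower, against 8.58% and 6.88% of all genes. The Hoxd-null uterus had 3 higher and 8 lower, against 6.25% and 5.83%, and the compound Hoxd-null uterus 2 higher and 7 lower, against 7.98% and 6.38%. These 4 comparisons share the WT library. In 19 members no mutant uterus was 2-fold from WT, among them Cyp2j6, Cyp2u1, Cyp4f13, Cyp4v3 and Cyp20a1. The 19 also include Cyp2b10, Cyp2b13, Cyp2b19 and Cyp2d12, which had at most 1.48 reads in any uterus, too few to show a difference. The matching share over all genes was not counted.

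No P450 gene was separated at least 2-fold by both Hoxa-null uteri from the other 3 uteri, where 0.987% of all genes lay above and 1.1% below. By any amount, 10 of the 42 lay above and 2 below, against 14.8% and 13.2% of all genes, the widest gaps being 0.60 for Cyp39a1 and 0.57 for Cyp2t4. Cyp4f18 alone was separated at least 2-fold by the Hoxd-null pair, where 0.904% of all genes lay above and 0.363% below. By any amount, 2 members lay above and 10 below in that pair, against 14.4% and 13.8%, with gaps of up to 0.74 for Cyp2j13. The Hoxa-null libraries are part of the comparison group of the Hoxd-null pair, and the reverse.

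Cyp4f18 is the omega-hydroxylase that inactivates leukotriene B4 in myeloid cells. It was 2.38 and 2.04 log2 units higher in both Hoxd-null uteri (compound second) than in WT, and -0.12 and 0.16 from WT in both Hoxa-null uteri. The Hoxd-null pair was apart from the other 3 uteri by 1.88, with no overlap. All 4 measured neutrophil markers were higher in the same pair, by 2.92 to 7.06 and, in its compound library, 2.66 to 6.45, and all 5 macrophage markers by 1.16 to 1.75 and 1.50 to 2.52, where 2 of 5 were at least 2-fold higher in each Hoxa-null uterus too, by up to 1.90 and 2.06. Of the neutrophil markers 3 and 2 of 4 were also at least 2-fold higher in both Hoxa-null uteri (compound second), by up to 1.86 and 5.17. Ly6g, the fifth neutrophil marker, was constant. The part of these cells in the Cyp4f18 difference was not tested. In the oviduct Cyp4f18 was 2.86 higher with neutrophil markers between -1.15 and 0.23.

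Cyp2r1, the main vitamin D 25-hydroxylase of liver, was the one member at least 2-fold higher in all 4 mutant uteri, by 1.82, 1.38, 1.78 and 1.93 in the 4 mutant uteri (Hoxa-null, its compound, Hoxd-null, its compound), and 0.06 in the oviduct. Both WT libraries were thus lower than every mutant uterus. Across all measured genes, 1.2% were at least 2-fold higher in all 4 mutant uteri. Cyp27b1, which makes the active hormone, stayed between -0.38 and 0.44 in the mutants, and Vdr, its receptor, between -0.64 and 0.10.

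Cyp3a57 was the one member lower in all 4, as were 1.22% of all genes. It had 5.34, 21.6 and 12.7 reads in the Hoxa-null, compound Hoxa-null and Hoxd-null uteri, was at the floor in the compound Hoxd-null uterus and had 46.6 reads in the WT uterus. The log2 differences were -3.34, -1.24 and -1.75, and the level was at least 18.6-fold lower in the compound Hoxd-null uterus. The order of the libraries followed neither cluster. Uterine gland markers were also low in the mutants, at least 2-fold for 4, 4, 3 and 4 of 5 in the same order of libraries, and their part in the Cyp3a57 difference was not tested.

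In family 1, Cyp1a1 had 111 reads in the Hoxa-null uterus, 27, 22 and 20 in the compound Hoxa-null, Hoxd-null and compound Hoxd-null uteri, 32 in the WT uterus and 29 in the oviduct. The Hoxa-null library stood alone, 1.58 log2 units above WT. Cyp1b1, which hydroxylates estradiol and aromatic hydrocarbons, was -0.95 in the Hoxa-null uterus and 1.90 in its compound, and -0.04 in the Hoxd-null uterus and -1.74 in its compound, so the 2 Hoxa-null libraries lay on opposite sides of WT. In the oviduct it was 2.32 higher. Ahr was between -0.33 and 0.46 in all mutants.

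Families 2 and 3 differed from WT in different directions in different mutants. Of 21 measured members, the Hoxa-null uterus had 1 higher and 6 lower, against 6.03% and 7.3% of all genes. Its compound had 5 higher and 1 lower, against 8.58% and 6.88%. Both Hoxd-null uteri had none higher, against 6.25% and, in the compound, 7.98% of all genes. They had 8 lower and, in the compound, 6 lower, against 5.83% and 6.38%. These counts include calls of Cyp2a4 and Cyp2a5 on few reads, given below. Cyp2a5, with the compound Hoxd-null uterus read as the floor, had 2.0, 18.6 and 3.0 reads in the Hoxa-null, compound Hoxa-null and Hoxd-null uteri and 10.8 in the WT uterus. The WT uterus was 6.25-fold above the Hoxa-null uterus and 3.29-fold above the Hoxd-null uterus, with exact 95% intervals of 1.36 to 58.2 and 0.865 to 18.4, and at least 4.31-fold above the compound Hoxd-null uterus. Cyp2f2 was -1.17, 0.79, -2.36 and -1.03 from WT in the 4 mutant uteri (Hoxa-null, its compound, Hoxd-null, its compound). The compound Hoxa-null uterus was thus above WT and the other 3 mutants below for both.

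Cyp2a4 counted among the calls with the same directions, on at most 9.0 reads in a uterus. Against a floor of 3 reads the WT uterus was only at least 1.46-fold and 1.51-fold above the Hoxa-null and compound Hoxd-null uteri, and over the Hoxd-null uterus the WT ratio of 2.31 had an exact 95% interval of 0.277 to 42.1, and the compound Hoxa-null uterus was 2.17-fold above WT with an interval of 0.595 to 10.1, so none of the 4 calls is firm. Cyp2s1 was -0.05, -0.04, -1.83 and -0.65 in the same order, lower in both Hoxd-null libraries by a gap of 0.60. Cyp2d10 was -1.65, -0.96, -1.67 and -1.18, and Cyp2d9 was at least 2-fold lower in the Hoxa-null and Hoxd-null uteri at -1.02 and -1.21. Cyp2d11 and Cyp2d40 were 1.36 and 1.18 higher in the compound Hoxa-null uterus, so the Cyp2d genes did not differ from WT as a block.

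Cyp2c44 had 11, 39, 7 and 7 reads in the 4 mutant uteri (Hoxa-null, its compound, Hoxd-null, its compound), 6 in the WT uterus and 29 in the oviduct. The compound Hoxa-null uterus was the highest of the 5, by 2.57 over WT. Cyp3a13 was 1.36 higher in the Hoxa-null uterus, and Cyp2t4 1.69 higher in the compound Hoxa-null uterus. Cyp2e1 was -0.88, 0.93, -1.02 and -1.88 in the 4 mutants. Adipocyte markers were lower for 7 of 7 genes in the compound Hoxd-null uterus, at -4.83 to -2.23, and for 6, 1 and 2 of 7 in the Hoxa-null, compound Hoxa-null and Hoxd-null uteri, and their part in the Cyp2e1 values was not tested.

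Cyp4f39, known in mouse epidermis for omega-hydroxylation of the very long fatty acids of skin ceramides, had 141 reads in the Hoxa-null uterus, 20, 10 and 20 in the compound Hoxa-null, Hoxd-null and compound Hoxd-null uteri, 17 in the WT uterus and 42 in the oviduct. The Hoxa-null library was 2.84 above WT and the other uteri lay between -0.64 and 0.10. All 6 squamous epithelium markers were higher in the Hoxa-null uterus, by 3.69 to 7.99, and also in the compound Hoxa-null uterus, by 1.97 to 5.55, where Cyp4f39 was 0.10 above WT, and in the compound Hoxd-null uterus, by 1.02 to 3.23, where Cyp4f39 was -0.03 from WT. The part of squamous cells in the Cyp4f39 value was not tested. Cyp2j9 was 1.32 higher in the Hoxd-null uterus and Cyp2j13 1.30 higher in the compound Hoxa-null uterus.

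The remaining calls in the uterus were single libraries of sterol genes. Cyp7b1, the oxysterol 7-alpha-hydroxylase, was 1.08 higher and Cyp27a1 was at -1.04 in the Hoxa-null uterus, and Cyp39a1 was 1.13 higher in the compound Hoxa-null uterus. Among the 22 measured partners, 1, 3, 2 and 0 were at least 2-fold higher and 1, 3, 1 and 3 lower in the 4 mutant uteri (Hoxa-null, its compound, Hoxd-null, its compound). Nr1h4, the bile acid receptor, was at least 2-fold lower in all 4, at -2.06, -3.05, -1.20 and -3.04, and Nr1i3, the receptor behind Cyp2b10 induction, was 1.38, 2.65 and 3.05 higher in the first 3 and -0.22 in the last, while Cyp2b10 was at the floor in all 4.

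**Figure D4:**
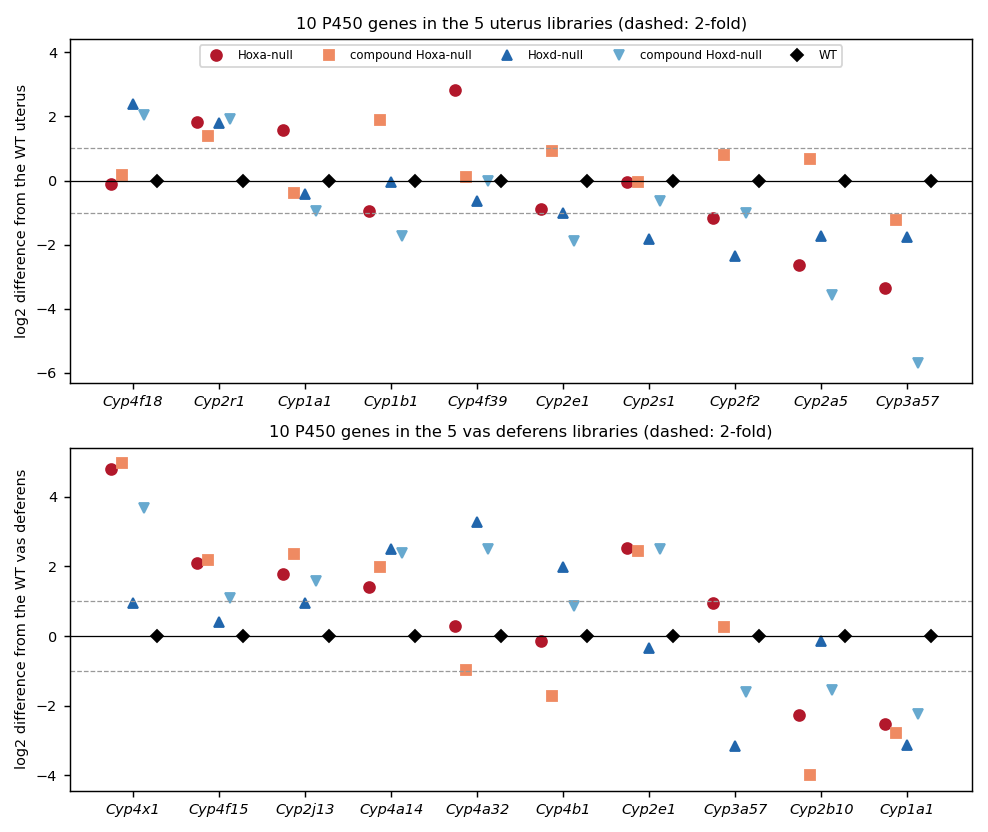
Log2 difference from WT for 10 P450 genes in the 4 mutant uteri (top) and 10 in the 4 mutant vasa (bottom), with the WT library at 0 and dashed lines at 2-fold. Cyp4f18 is high in both Hoxd-null uteri, Cyp2r1 is above and Cyp3a57 below WT in all mutant uteri, Cyp4x1 and Cyp4f15 are highest in both Hoxa-null vasa, and Cyp1a1 is below WT in all mutant vasa; the lowest Cyp3a57 and Cyp2a5 points and the WT vas for Cyp4x1 are libraries at the floor, so the heights drawn there are no bounds.

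In the vas deferens, P450 genes at least 2-fold apart from WT numbered 6 higher and 7 lower of 41 in the Hoxa-null library, against 11.0% and 8.29% of all measured genes. The compound Hoxa-null vas had 7 higher and 7 lower, against 14.0% and 8.26%. The Hoxd-null vas had 5 higher and 3 lower, against 3.41% and 4.82%, and the compound Hoxd-null vas 12 higher and 5 lower, against 7.73% and 5.32%. The 4 comparisons share the WT vas deferens, the library with Prss28 reads. In 18 members no mutant vas was 2-fold from WT, including Cyp1b1, Cyp27a1, Cyp27b1, Cyp39a1, Cyp46a1, Cyp2u1 and 4 of 6 measured Cyp4f genes. Of these, Cyp2u1 reached the minimum level in the epididymis alone, and the matching share over all genes was not counted.

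Both Hoxa-null vasa lay at least 2-fold above the other 3 vasa for 2 members, Cyp4x1 and Cyp4f15, and below for none, where 4.1% of all genes lay above and 2.21% below. By any amount 5 members lay above and 10 below, against 23.5% and 21.2% of all genes. Cyp4x1, a family 4 gene with few known substrates, had 30.2 and 35.3 reads in both Hoxa-null vasa (compound second), 1.98 in the Hoxd-null vas and 10.0 in its compound, with the WT vas read as the floor. On this reading Cyp4x1 reached the minimum level in the Hoxa-null pair alone, so it counted as measured only through the libraries where it was high. Against 3 reads in the WT vas it was at least 13.2-fold and 14.8-fold higher in the Hoxa-null pair and at least 6.12-fold higher in the compound Hoxd-null vas. The compound Hoxd-null vas, heterozygous for Hoxa9,10,11, came closest to the pair, and the gap was 1.11 log2 units.

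Cyp4f15 was 2.10 and 2.18 higher in both Hoxa-null vasa (compound second), 0.41 in the Hoxd-null vas and 1.09 in its compound, with a gap of 1.01, close to the 2-fold limit. Cyp2j13 was 1.78 and 2.35 higher in the Hoxa-null pair, 0.95 in the Hoxd-null vas and 1.59 in its compound. In the WT caudal epididymis Cyp4f15 and Cyp2j13 were 3.56 and 4.12 above the WT vas, and Cyp4x1 had 3.0 reads there, at least 1.92-fold above it. For Cyp4x1 every mutant but the Hoxd-null vas was above the epididymis, and for the other 2 genes all 4 mutants were below it.

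Markers of neighbouring organs were high in the same libraries. The 2 measured seminal vesicle secretion genes were 3.18 and 3.58 higher in the Hoxa-null vas and 2.64 and 3.11 higher in its compound, and between -1.05 and -0.27 in both Hoxd-null vasa (compound second). Adam7, an epididymal marker, was 3.19, 3.23, 0.50 and 2.47 higher in the 4 mutant vasa (Hoxa-null, its compound, Hoxd-null, its compound), and 6.02 in the epididymis. Of the 6 epididymal markers 4, 3, 1 and 2 were at least 2-fold higher in the same order, and 4 in the epididymis itself, while Lcn5 was lower in the Hoxa-null vas, its compound and the epididymis at -1.40, -2.18 and -3.22. Among these calls Spint4 rested on 3.0 reads in the Hoxa-null vas and 3.98 in the Hoxd-null vas, with the WT vas at the floor. It was the 1 call of the Hoxd-null vas. Spint4 reached the minimum level in the epididymis alone, at 47.7 reads, and had to be higher there. The part of these neighbouring organs in the Cyp4x1, Cyp4f15 and Cyp2j13 values was not tested.

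The Hoxd-null pair was at least 2-fold above the other 3 vasa for Cyp4a32 and below for Cyp3a57, where 0.142% of all genes lay above and 0.621% below. By any amount 5 members lay above and 3 below, against 12.6% and 11.9%. Cyp4a32, a close copy of the fatty acid omega-hydroxylase Cyp4a10, was 3.28 and 2.49 higher in both Hoxd-null vasa (compound second), and 0.30 and -0.97 from WT in both Hoxa-null vasa (compound second), with a gap of 2.19, and -0.62 in the epididymis. In the annotation of the files it has the same start as Cyp4a10, chromosome 4, 115190906 in mm9, so reads of the 2 genes cannot be told apart with certainty. Cyp4a10 itself was 0.29 and -0.30 in the Hoxd-null pair and -1.59 and -1.22 in the Hoxa-null pair.

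Cyp3a57 was -3.17 and -1.61 from WT in both Hoxd-null vasa (compound second), and 0.95 and 0.27 above WT in both Hoxa-null vasa (compound second). The 2 genotype pairs lay on either side of the WT vas, the gap below it was 1.61, and the epididymis was at -0.46. In the uterus the same gene had been low in all 4 mutants. Cyp4b1, a fatty acid and arylamine oxidase of lung, was 1.98 and 0.85 higher in the Hoxd-null pair, -0.15 in the Hoxa-null vas and -1.73 in its compound, a gap of 0.85.

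In all, 4 members were at least 2-fold apart from WT in the same direction in all 4 mutant vasa, against 1.07% of all genes higher and 0.793% lower. Cyp1a1 was -2.53, -2.78, -3.12 and -2.24 from WT in the 4 mutant vasa (Hoxa-null, its compound, Hoxd-null, its compound). In the WT epididymis it was -0.84 from the WT vas, above every mutant. The WT vas is also the vas library with uterine gland genes, 3 of 4 of which were at least 2-fold lower in every mutant vas. These were Prss28, Prss29 and Spink3, with 43.2, 171 and 46.0 reads in the WT vas and at most 3.0 in any other library. They reached the minimum level in the WT vas alone, so they had to be lower in the mutants. The WT uterus had 32 reads of Cyp1a1 and 6640 of Prss28, and the part of uterine RNA in the Cyp1a1 difference was not tested. Ahr was 0.12 to 0.48 higher in the mutants and Nqo1, another Ahr target, was -0.94, -1.09, 0.44 and -0.61.

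Cyp4f18 was the other gene lower in all 4, at -1.27, -1.57, -1.03 and -2.27, and at -1.41 in the epididymis, so the WT vas stood above all 5 other libraries. Of 4 measured neutrophil markers 1, 0, 1 and 0 were at least 2-fold lower and 1, 2, 0 and 0 higher in the same order. Cyp4a14 and Cyp4a29, fatty acid omega-hydroxylases of the 4a block, counted as higher in all 4. Cyp4a14, a Ppara target in liver, was 1.41, 1.98, 2.50 and 2.38 higher, and -0.31 in the epididymis. Cyp4a29 is a weak case. With the WT vas read as the floor it had 5.21, 6.52, 3.0 and 5.36 reads in the 4 mutant vasa and 1.0 in the epididymis, which is under the minimum level, and against 3 reads in the WT vas it was at least 2.27-fold, 2.73-fold, 1.39-fold and 3.28-fold higher. Ppara was -1.26, -0.68, 0.80 and -0.10 from WT in the same vasa.

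Cyp2e1 was 2.52, 2.45 and 2.51 higher in both Hoxa-null vasa and the compound Hoxd-null vas, and -0.34 in the Hoxd-null vas. All 7 adipocyte markers were at least 2-fold higher in the same 3 libraries, by 1.87 to 2.64, 2.31 to 3.27 and 1.87 to 3.07, and 1 of 7 in the Hoxd-null vas. Adipocytes express Cyp2e1, and the part of fat in the libraries was not tested. Cyp2b10 was -2.28, -3.99 and -1.56 in the same 3 libraries and -0.13 in the Hoxd-null vas. Cyp2s1 was -1.72 in the compound Hoxa-null vas.

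Other calls in the vas were in 1 or 2 libraries. Cyp7b1 was -1.49 and -1.44 in the Hoxa-null pair. Cyp2r1 was -1.44 in the Hoxa-null vas and -1.32 in the compound Hoxd-null vas, where the uteri of all 4 mutants had been above WT. Cyp2d9 was -1.51 in the Hoxa-null vas, while Cyp2d10, Cyp2d11 and Cyp2f2 were 1.59, 1.54 and 1.27 higher in the compound Hoxd-null vas. Cyp2t4 was 1.05 higher in the Hoxd-null vas. Among the 17 measured partners, 1 was higher and 1 lower in each Hoxa-null library and none in either Hoxd-null library, the higher one being Vdr at 1.37 and 1.53.

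**Figure D5:**
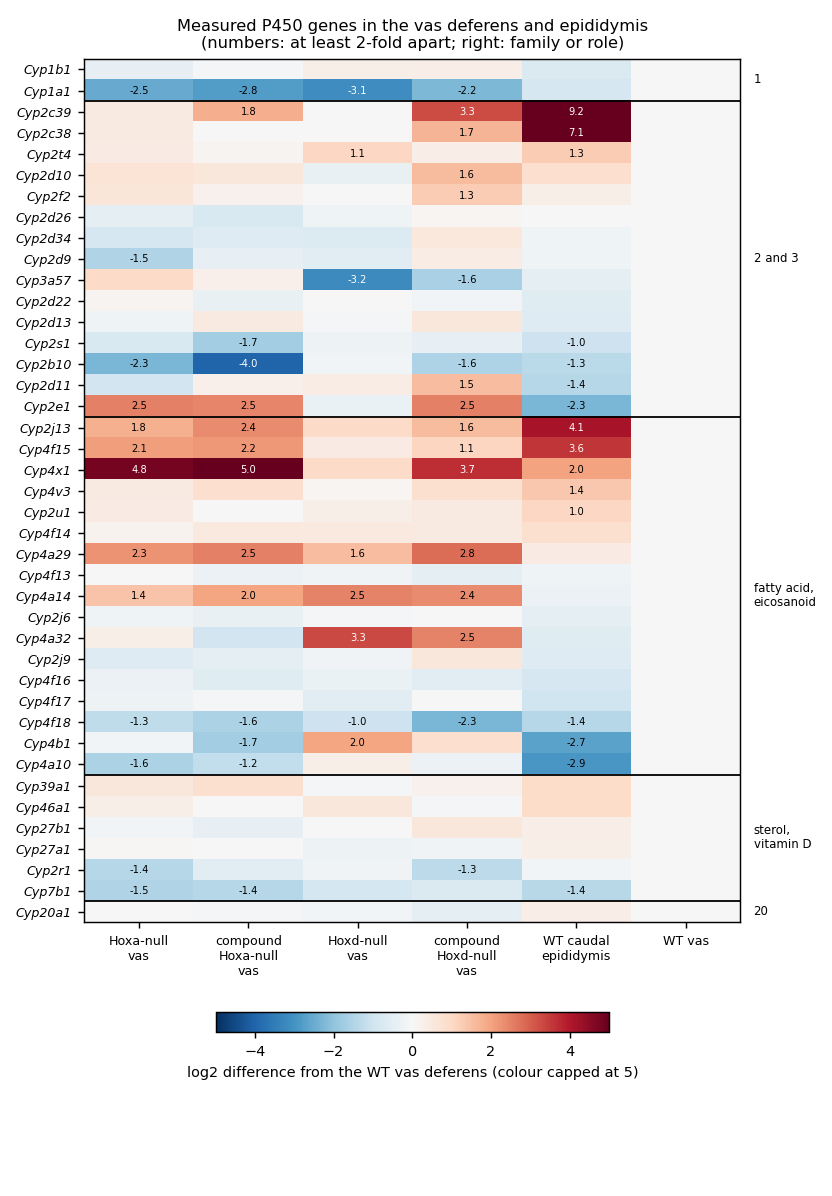
Log2 difference from the WT vas deferens for the 41 measured P450 genes (rows, grouped by family or role) in the 4 mutant vasa, the WT caudal epididymis and the WT vas itself, which is 0 by definition. Red is higher and blue lower, with colours capped and numbers at 2-fold or more. Cyp1a1 and Cyp4f18 are blue and Cyp4a14 and Cyp4a29 red in all 4 mutants. Cyp2c39 has the highest value of the epididymis column at 9.25, taken from a WT vas at the floor, so this height is no bound.

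The caudal epididymis had as many P450 genes below the vas deferens as above it. Against the WT vas, 8 of 41 members were at least 2-fold higher and 8 lower, where 16.2% and 12.7% of all measured genes were. The median difference was -0.22 for the members and 0.01 for all genes. Relative to all 5 vasa, 4 members lay at least 2-fold above and 2 below, against 5.73% and 3.64% of all genes. Cyp2c38, Cyp2c39 and Cyp2u1 reached the minimum level in the epididymis alone, and without them 5 of 38 were higher and 8 lower, against 15.0% and 12.9% of all genes, and 2 lay above all 5 vasa and 2 below, against 4.52% and 3.69%.

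A pair of neighbouring Cyp2c genes set the epididymis apart. Cyp2c39, known in mouse liver for hydroxylating retinoic acid, had 453 reads in the epididymis, 1.5, 4.0 and 7.5 in both Hoxa-null vasa and the compound Hoxd-null vas, and was at the floor in the Hoxd-null and WT vasa, at least 289-fold higher than in the WT vas. Cyp2c38, its near copy and an arachidonic acid epoxygenase, had 102 reads in the epididymis, 1.5 and 2.5 in the Hoxa-null and compound Hoxd-null vasa and was at the floor in the other 3, at least 65.0-fold higher. Both also count among the 2-fold calls of the compound Hoxd-null vas, at least 4.59-fold for Cyp2c39 and 1.53-fold for Cyp2c38, and Cyp2c39 among those of the compound Hoxa-null vas, at least 1.67-fold. Of the 14 Cyp2c genes in the block on chromosome 19, 8 were constant in the male set. In the female set 13 of the 14 were constant, both Cyp2c38 and Cyp2c39 included.

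Fatty acid enzymes were on both sides. Cyp2j13 and Cyp4f15 were higher in the epididymis, as given above, with Cyp4x1 counted as higher on 3.0 reads, Cyp4v3 at 1.36 and Cyp2u1, a hydroxylase of long fatty acids, at 1.05. Cyp4a10 was at -2.92 and Cyp4b1 at -2.69. Cyp2e1 was at -2.30, below all 5 vasa, with adipocyte markers at least 2-fold lower for 5 of 7. Cyp4f18, Cyp2b10, Cyp2d11, Cyp2s1 and Cyp7b1 were at -1.41, -1.34, -1.43, -1.05 and -1.38, and Cyp2t4 was 1.27 higher. Germ cell markers were 3.40 to 5.96 higher for all 4 genes, and their part in these values was not tested.

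Of the 33 members measured in both sexes, 18 were at least 2-fold higher in the oviduct than in the uterus and 5 in the epididymis than in the vas. The 3 higher in both were Cyp2j13, Cyp4f15 and Cyp2t4, 16.7% of the oviduct genes and 60.0% of the epididymis genes. Over all 15609 genes measured in both sets, the shared share was 31.4% and 37.8%. Neither of the 2 members lower in the oviduct was among the 7 lower in the epididymis. Between uterus and vas of the same mutant at most 1 member was shared in either direction, such as Cyp3a57 in both Hoxd-null genotypes. Over all genes the shared share was 8.0% to 26.5% of either list, and a single shared member says nothing particular about the P450 genes.

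Members below the minimum level are named for completeness. In the female set, Cyp2g1 had 16 reads in the oviduct, Cyp4x1 13.6 reads in the compound Hoxa-null uterus and Cyp4a10 up to 4.87 reads. Cyp2a12, Cyp2a22, Cyp2b9, Cyp2b23, Cyp2c55, Cyp3a11, Cyp3a16, Cyp3a25, Cyp4a14, Cyp4a32 and Cyp24a1, the vitamin D 24-hydroxylase, had at most 4 reads in any library, and no level is printed for Cyp8b1, whose values lay only partly on whole reads. In the male set, Cyp4f39 had 20 reads and Cyp2c55 13 in the compound Hoxa-null vas, and Cyp2j5 had 17.2 reads in the WT vas and at most 4 in the others. Cyp1a2, Cyp2a5, Cyp2a12, Cyp2a22, Cyp2b13, Cyp2b19, Cyp2b23, Cyp2c29, Cyp2c40, Cyp2c44, Cyp2c68, Cyp2d40, Cyp2g1, Cyp3a13 and Cyp24a1 had at most 8 reads, and Cyp8b1 at most 4.1. The 21 constant entries of the male set were 8 Cyp2c genes, Cyp2a4, Cyp2b9, Cyp2d12, Cyp2w1, 5 Cyp3a genes, 1 entry of Cyp4a29, Cyp4a31, Cyp4f40 and Cyp7a1.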

How the data were processed

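RNA was sequenced from 12 pools of 3 animals. The RNeasy Mini kit (Qiagen) was used for extraction and TruSeq reagents (Illumina) for the libraries, per the labels. TopHat and genome build mm9 were used, per the submitters' processing notes. How reads were counted and normalised, and on which annotation, is not given in the sources used here. The authors deposited log2 values, with a median of 0 for each gene over the 6 libraries of a sex, so levels are not comparable between the sexes. Run and lane are given per the file headers.

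The design of the fits, the lists and the members were chosen with earlier results of these data known. The plan assumed expression values that needed a pseudocount, and since the deposited values were log2 already, their differences were used with none added. Small shifts between libraries were removed by each library's median over genes that were not constant, at most 0.00877. Low values lay on steps that gave the normalised worth of a read in each library. Levels in reads are printed only where at least 2 libraries were tied at the floor or all 6 libraries lay on whole reads up to a lowest library of 50. The exceptions are genes with a lone library read as the floor, described below, such as Cyp2a5 in the female set and Cyp4x1, Cyp4a29 and Cyp8b1 in the male set. Of low values, 65.7% of the female set and 62.7% of the male set were whole reads within 0.01. A gene counted as measured with at least 20 normalised reads in some library, taken from an approximate level where values lay only partly on whole reads, or with no readable level. Most genes with no readable level are high in all libraries, but some are not. A lone library was read as the floor where at least 2 others then lay on whole reads, an alternative chosen after seeing the data, which held for 4 members and puts Cyp4a29 under the minimum in the male set. The recovery was tested on simulated data. Calls were differences of at least 2-fold. Bounds used 3 reads and intervals were exact, at 95%. Read totals are unknown, and few reads limit the precision of low genes.

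Genes given in full in every library were those separated 2-fold by a genotype pair and the 8 with the widest range in each sex, and other measured members are named where 2-fold apart. Alternatives were unshifted values, no minimum, centring on the median difference from WT, other references, leaving out libraries and comparing within lanes. Python 3 tools were numpy, pandas, scipy and matplotlib. Cyp26 and steroid enzymes were left out by the choice of members.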

Additional observations from a re-analysis of the deposited data

How the results depend on the processing

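No paired analysis was possible because each group is 1 library and the labels give no replicate numbers. Of 138 single-gene differences, 5 reversed, all against the mean of the 3 libraries not null for the mutant's cluster: Cyp3a57 in the compound Hoxa-null uterus (1.23), Cyp4a14 in the Hoxa-null vas (-0.22), Cyp4a29 in the Hoxd-null vas (-0.043), and Cyp2b10 (0.53) and Cyp4f15 (-0.34) in the compound Hoxd-null vas. The cause was not tested. Among the alternatives for single genes, 351 values kept direction and side of the 2-fold limit and 58 fell under it. Among those for the 28 counts, 141 stayed within 1.5 times and 45 moved. With no minimum level, lower members numbered 11 in the Hoxa-null uterus, 2 in its compound, 11 in the compound Hoxd-null uterus, 5 in the oviduct, and 11 in each Hoxa-null vas, higher members 16 in the epididymis, and members below in the Hoxa-null vas pair 3. Against the 3-library mean, the Hoxa-null uterus had 3 higher and 1 lower, its compound 14 higher, each Hoxd-null uterus 1 higher, the Hoxd-null vas 5 lower and its compound 2 lower. Shares over all genes were not counted with no minimum level or against this mean. Beyond all 5 libraries of the other tissue, the oviduct had 17 higher and 0 lower and the epididymis 4 higher and 2 lower. With the minimum met in a vas library, an alternative chosen after seeing the data, the epididymis had 5 higher. Reading a lone library as the floor, also chosen after seeing the data, moved no count by more than 1.5 times. Centring on the median difference left 1 member above in the Hoxa-null vas pair.

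Leaving out each library in turn gave 0 to 7 members above and 0 to 1 below for the Hoxa-null uterus pair (7 without the Hoxa-null uterus, 3 without its compound, 1 above and 1 below without WT). It gave 1 above throughout and 0 to 4 below for the Hoxd-null uterus pair (4 without the Hoxa-null uterus, 2 without either Hoxd-null uterus, 1 without WT). For the vas it gave 2 to 3 above and 0 to 3 below for the Hoxa-null pair (3 below without the Hoxa-null vas, 1 without its compound, 2 without the compound Hoxd-null vas, 1 without WT). The Hoxd-null vas pair had 1 to 4 above and 1 to 3 below (4 above without the Hoxd-null vas, 2 without its compound, 3 below without WT). Within lane 1 the Hoxa-null uterus had 5 higher and 7 lower members, which is its main comparison with WT again. Within lane 2 its compound had 11 higher and 1 lower than both Hoxd-null uteri. The 11 members below in the Hoxd-null uterus pair within lane 2 are the same comparison read from the other side. Within lane 2 of the vas the Hoxa-null libraries had 4 members above and 4 below the Hoxd-null library. The 4 above and 4 below for the Hoxd-null library are that comparison reversed. No share over all genes was counted for the settings of this paragraph. Leaving out libraries loosens the rule for every gene, so these counts cannot be called high or low for the P450 genes. Depth limits the genes given in reads, where 1 library of few reads sets the fold.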
